A study of Homo sapiens with 2 samples.

Results

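The HOX cluster genes are the 39 protein-coding genes whose symbol is HOX, a cluster letter from A to D and a paralog number, out of 19974 protein-coding genes on chromosomes 1 to 22 and X. They were chosen by name alone, and no measured value entered the choice. KDM1B, a histone demethylase also called LSD2, was mapped in the cell line MDA-MB-231, derived from a triple-negative breast cancer. The cells stably carried KDM1B with a 3xFLAG tag, delivered by the retroviral vector pOZ. The data were 1 library precipitated with an antibody against the tag and 1 input library of the same cells, and the deposited result is 1 list of 78536 peaks. Each peak carries its log2 ratio, ChIP library over input library. Both groups carried the tagged protein, which came from the vector in addition to whatever the cells make themselves, and cells without the tag were not analysed here. With 1 library in each group there is no replicate error and no test between groups. Counts, distances and ratios are given as descriptions of these libraries, sequencing depth is unknown, and RNA was not measured in the data analysed here.

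HOX genes encode homeodomain transcription factors that give body segments, limbs, blood lineages and reproductive organs their identity. They stand in 4 clusters left by genome duplications, and genes with the same paralog number are the copies of one ancestral gene. Within a cluster the low-numbered genes pattern the anterior body and the high-numbered genes the posterior body, and all are transcribed in the same direction, towards the low-numbered end. Polycomb complexes keep the clusters silent where they are not needed and Trithorax complexes keep them active. KDM1B removes methyl groups from lysine 4 of histone H3, a mark that Trithorax methyltransferases place.

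The clusters also carry microRNA genes, with 8 microRNA hairpins in their spans. The share of all microRNA hairpins under a peak was not counted, so no excess or lack can be read here. Of the 8 hairpins in the clusters, 1 lay under a peak. That hairpin is miR-615, inside the HOXC4 and HOXC5 genes (chromosome 12, 54033950 to 54034045, plus strand), and a KDM1B peak from 54033561 to 54034342 covered all of it, with a log2 ratio of 2.56. Its RefSeq hairpin and mature sequences (GRCh38.p14) are shown because they are the RNA genes that the peak contains. The mature miR-196 sequences follow for comparison, since their 3 genes stand in 3 of the clusters, without a peak over them. Capitals mark the seed, bases 2 to 8 of a mature microRNA, and the hairpin is in lower case throughout.
hairpin of miR-615: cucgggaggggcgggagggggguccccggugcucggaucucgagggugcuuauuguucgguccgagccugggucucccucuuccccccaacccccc
hsa-miR-615-5p: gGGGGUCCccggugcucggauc
hsa-miR-615-3p: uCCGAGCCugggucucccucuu
hsa-miR-196a-5p: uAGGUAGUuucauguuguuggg
hsa-miR-196b-5p: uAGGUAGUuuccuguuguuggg
The miR-196a and miR-196b sequences share the seed AGGUAGU, and both miR-615 seeds differ from it. MIR196A1, between HOXB9 and HOXB13, began 1.05 kb from the edge of a peak with a log2 ratio of 2.90. MIR196A2, between HOXC9 and HOXC10, lay 5.34 kb from the nearest peak. MIR196B, in the HOXA cluster, lay 171 kb from one. The 3 genes with the miR-196 seed thus stood from 1.05 to 171 kb away from a peak.

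HOX genes carried few KDM1B peaks. A peak was counted for a gene when its midpoint lay in the gene or at most 5 kb away, and 13 of 39 HOX genes (33.3%) had one, against 67.5% of all protein-coding genes. HOX genes are short, with a median of 3780 bp against 24200 bp, and among protein-coding genes of 10 kb or shorter the share was 50.6%. Of the 33 HOX genes of that length 9 had a peak (27.3%), and of the 6 longer ones 4 had, where 74.2% of longer protein-coding genes did. Exactly 1 peak was found at 12 of the 13 genes, and HOXD3 had 6. No HOX gene had 2 to 5 peaks. Of all protein-coding genes 15.7% had 1 peak, 10.4% had 2, 7.44% had 3 and 34% had 4 or more. A midpoint inside the gene itself was found in 5 HOX genes (12.8%), against 58.2% of all protein-coding genes and 32.8% of the short ones. A midpoint within 1 kb of either end was found at 3 (7.69%), against 41.9% of all and 35.1% of the short genes. With only the peaks at or above the median ratio of the list, 6 HOX genes (15.4%) kept a peak within 5 kb, against 55.7% of all protein-coding genes.

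The count of genes depended on the 5 kb limit. Just inside it stood HOXB9, at 4.83 kb from a peak midpoint, and HOXB2, at 4.09 kb. The next genes outside were HOXB1 at 7.55 kb, HOXD8 at 8.14 kb and HOXD11 at 9.44 kb. A limit of 10 kb therefore added these 3 genes, for 16 of 39 (41%), against 71.3% of all protein-coding genes.

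The 4 clusters differed in how many peaks they held. From 5 kb below the first to 5 kb above the last HOX gene, HOXA held 0 peaks, HOXB 3, HOXC 4 and HOXD 8. These 15 peaks lie in 567.9 kb, which is 26.4 peaks per Mb, where the merged spans of all protein-coding genes with 5 kb on each side held 49.6 per Mb. HOXD, on chromosome 2, had 70.5 peaks per Mb and 5.81% of its bases under a peak, above the 48.0 per Mb and 5.05% of the coding-gene spans of its own chromosome. HOXC, on chromosome 12, had 31.4 per Mb and 2.31% under a peak, where the chromosome had 59.6 per Mb and 7.73%. HOXB, on chromosome 17, had 14.3 per Mb and 0.981%, where the chromosome had 101 per Mb and 12.5%. HOXA, on chromosome 7, had none, where the chromosome had 33.1 per Mb and 3.6%. HOXD was the only cluster above its chromosome on either measure. No test of these differences was made, since the peaks come from a single pair of libraries.

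**Figure D1:**
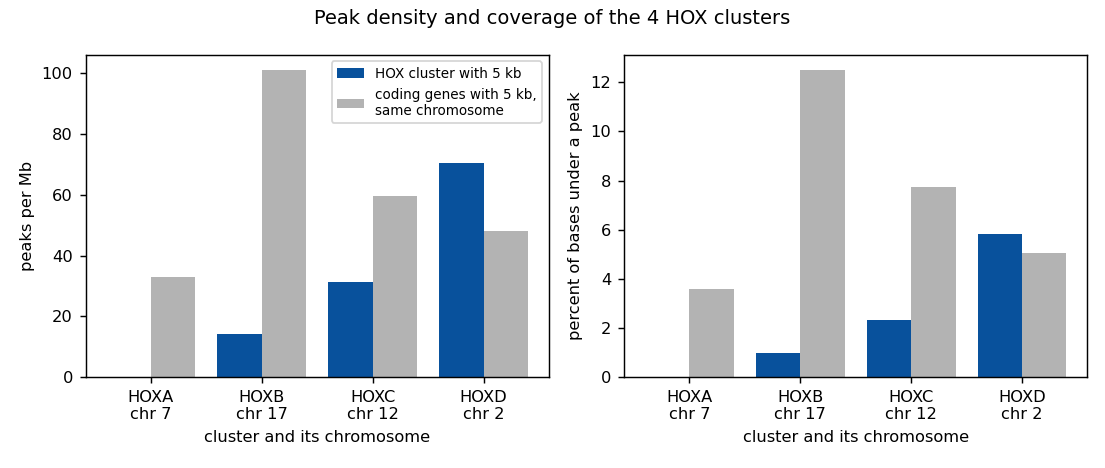
Peaks per Mb (left) and percent of bases under a peak (right) in each HOX cluster with 5 kb on each side (blue bars) and in the merged protein-coding genes with 5 kb of the same chromosome (grey bars). HOXD, at 70.5 peaks per Mb, exceeds its chromosome (48.0), while HOXA, HOXB and HOXC lie below theirs.

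In ratio and width the cluster peaks were close to the list as a whole. Their log2 ratios ran from 2.49 to 4.72 with a median of 3.08, against a median of 2.99 and quartiles of 2.58 and 3.52 for all 78536 peaks, and 8 of the 15 lay above the median of the list. Their median width was 786 bp, with a range from 500 to 1225 bp, and that of all peaks was 804 bp. Of the 15 peaks 8 had their midpoint in a HOX gene and 7 between HOX genes. In 2 of them the ratio on the linear scale was a whole number times 2.64, a common step of the list, as it was in 12.4% of all peaks. A ratio over a single input read would have this form. Both of these were of the smallest width, 500 bp, with ratios of 4.72 and 4.21, and the read counts behind them are unknown. The step was set so that at least 95% of the strongest 1% of all peaks were whole multiples of it. The highest ratios named below for other genes can therefore have the same form.

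**Figure D2:**
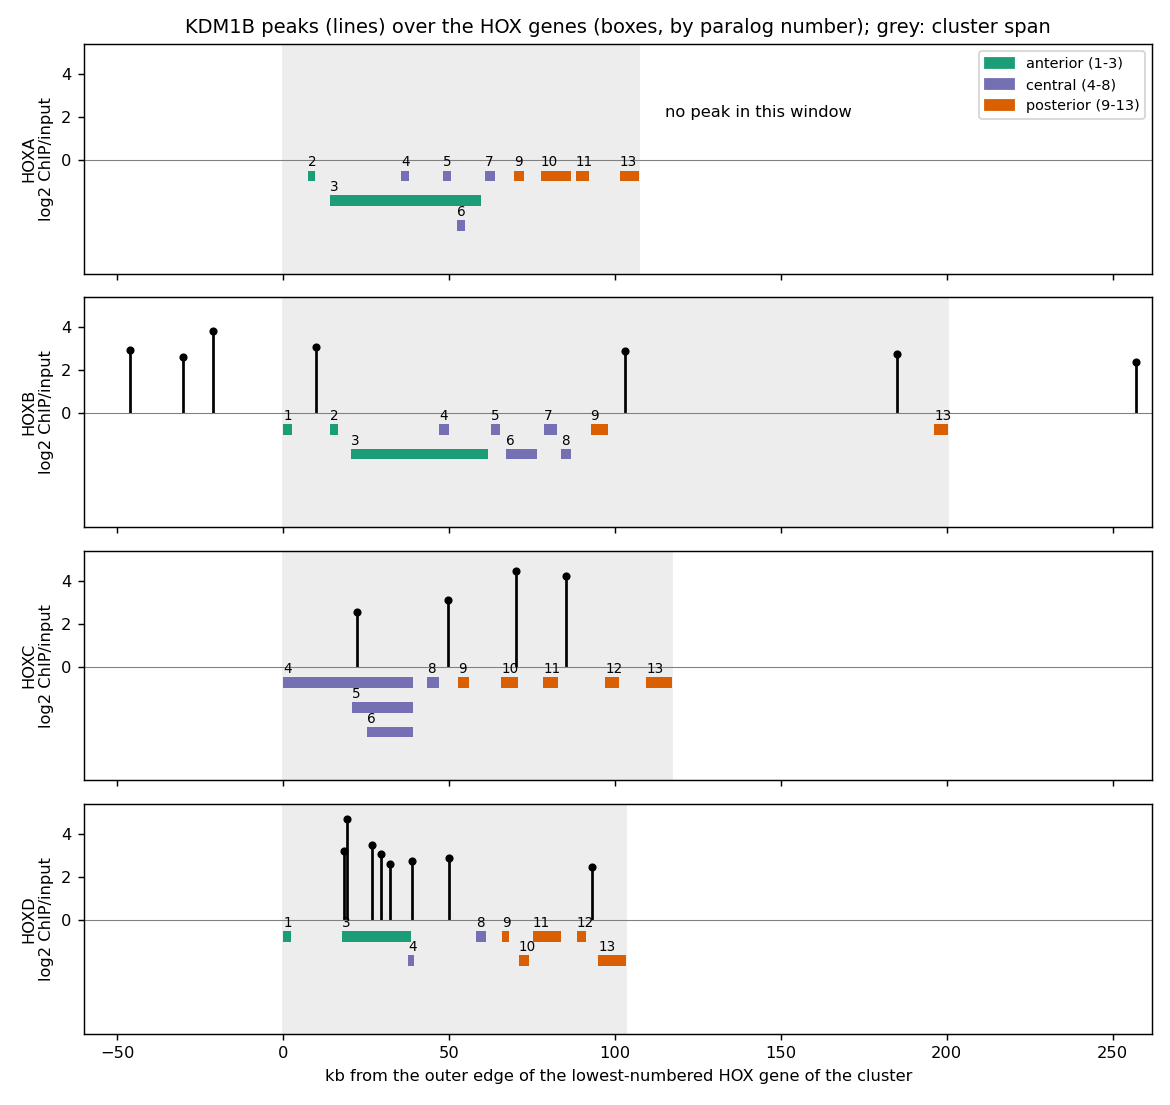
Position and log2 ratio of ChIP over input (black lines with dots) of each peak in and around the 4 clusters, drawn in kb from the outer edge of the lowest-numbered gene, with HOX genes as boxes coloured by position class and labelled with their paralog number where reported here. HOXA is empty, the HOXB peaks are far apart, and 6 of the 8 HOXD peaks stand over HOXD3 and HOXD4.

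The HOXD cluster (chromosome 2, 176087487 to 176190907, hg38) held its peaks mainly at HOXD3 and HOXD4. HOXD3, which helps to form the first neck vertebrae, had 5 peaks inside the gene (176152529 to 176173098), and they covered 16.7% of it, or 17.2% with the part of the HOXD4 peak that reaches into the gene. From the low-coordinate side their log2 ratios were 2.61, 3.09, 3.49, 4.72 and 3.22. The RefSeq promoter list gives 1 start for HOXD3, at 176157307 on the plus strand. These midpoints stood 1.51, 4.2, 7.03, 14.5 and 15.4 kb downstream of it. The annotated gene span begins further upstream, at 176152529, and the HOXD4 peak overlaps that edge. The strongest of them, from 176171529 to 176172029, was followed after 52 bp by the last, from 176172081 to 176173306, which reached past the high-coordinate end of HOXD3 into the antisense lncRNA gene HAGLR. At least 6 peaks, as at HOXD3, were found at 23.5% of all protein-coding genes.

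HOXD4, a gene induced by retinoic acid in the hindbrain and neck, had 1 peak, from 176151634 to 176152639 with a log2 ratio of 2.75. It covered 60% of this gene of 1677 bp, the highest coverage of any HOX gene. Coverage as high was found in 5.06% of all protein-coding genes. The peak midpoint lay 586 bp downstream of the listed HOXD4 start and 393 bp from the low-coordinate edge of the HOXD3 gene, and it is the sixth peak counted for HOXD3. The other peaks of the cluster were isolated. One with a log2 ratio of 2.49 (176097447 to 176098233) lay between HOXD12, 1.96 kb away, and HOXD13, 1.90 kb away, both of them regulators of digit and genital development. It was the weakest of the 15. Another, with a ratio of 2.91 (176140260 to 176141417), lay over the lncRNA gene LOC401021, between HOXD8 and HOXD4, 8.14 kb from HOXD8. HOXD1, HOXD8, HOXD9, HOXD10 and HOXD11 had none within 5 kb.

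The HOXC cluster (chromosome 12, 53938831 to 54056030) had a peak within 5 kb of 7 of its 9 genes, from 4 peaks in all. The peaks at HOXC10 and HOXC11 reached 1 HOX gene each, and the other two were shared by neighbours. HOXC10, active in the hindlimb and lumbar spinal cord, had the strongest, with a log2 ratio of 4.45 (53985558 to 53986401). It lay wholly inside the gene, covered 16.4% of it and its midpoint was within 1 kb of an end of the gene, as was found besides only at HOXD3 and HOXD4. The same midpoint lay 0.461 kb from the lncRNA gene HOXC-AS3. Coverage at least as high as at HOXC10 was found in 22.4% of protein-coding genes. A peak with a ratio of 4.21 (53970530 to 53971030) lay inside HOTAIR, the lncRNA known for its link to Polycomb and to breast cancer metastasis, and 2.35 kb from HOXC11. One with 3.09 (54005914 to 54006729) stood between HOXC9, 2.98 kb away, and HOXC8, 2.66 kb away, genes that specify thoracic motor neurons and vertebrae. The peak over miR-615, at 2.56, was the only one for HOXC4, HOXC5 and HOXC6, whose annotated spans overlap. It covered 2% of HOXC4 and 4.23% of HOXC5 and lay 3.13 kb from HOXC6. HOXC12 (11.8 kb from a peak) and HOXC13 (24.2 kb), a regulator of hair keratins, were the exceptions.

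The HOXB cluster (chromosome 17, 48528526 to 48728750) had no peak inside a HOX gene. HOXB2, a hindbrain patterning gene, lay 4.09 kb from a peak with a log2 ratio of 3.08 (48538251 to 48538877), which stood between it and HOXB1, 7.55 kb away. HOXB9, expressed in the thoracic region and mammary gland, lay 4.83 kb from a peak with 2.90 (48630935 to 48631435), which was inside the antisense lncRNA gene HOXB-AS4. The third peak, with 2.76 (48712690 to 48713626), stood 11.6 kb from HOXB13, a regulator of prostate development. HOXB3 to HOXB8 lay 10.3 to 37.4 kb from the nearest peak. HOXB4, a promoter of blood stem cell renewal, was among the farthest, at 36.9 kb.

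The HOXA cluster (chromosome 7, 27092993 to 27200091) stood in a stretch without peaks. The nearest, with a log2 ratio of 5.49 (27340706 to 27341206), lay 141 kb beyond HOXA13, and on the other side of the cluster none was listed for 792 kb. The distance to a peak midpoint was 141 kb at HOXA13, a limb and genital tract gene, and 238 kb at HOXA2, a gene of the hindbrain and branchial arches. HOXA9, known for its part in leukaemia, was at 175 kb and HOXA5 at 197 kb. The whole peak-free stretch measured 1040 kb and contained 14 protein-coding genes, among them the 11 HOXA genes, the flanking homeobox gene EVX1 and the adaptor gene SKAP2. The list left 51 such stretches with 11 or more whole protein-coding genes, and 29 of them were shorter than this one. In 12 of the 51 most genes were olfactory receptors. Input coverage of the HOXA region is unknown, and its part in the absence of peaks was not tested.

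**Figure D3:**
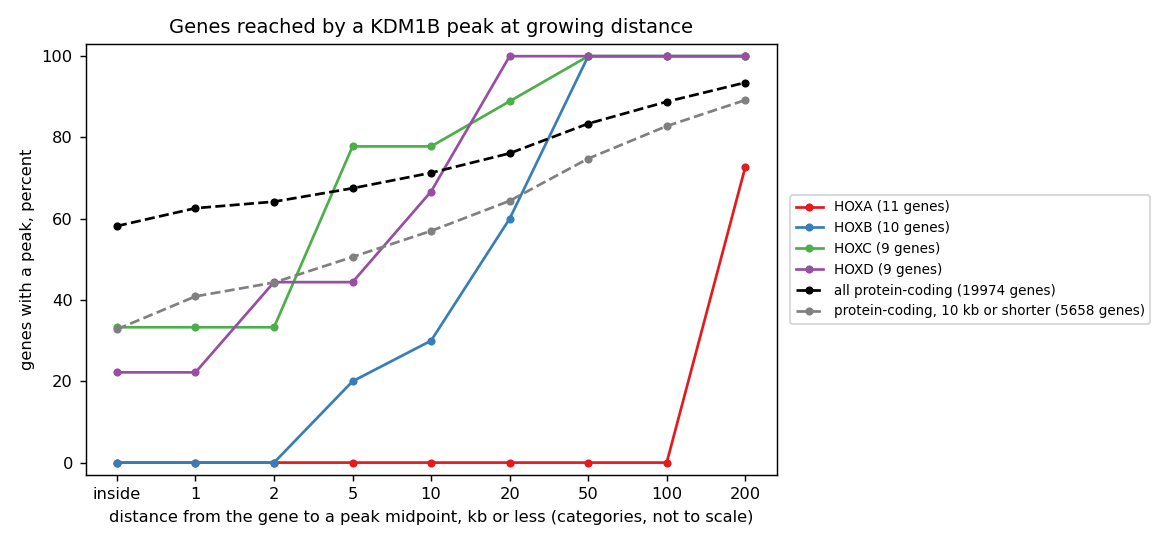
Percent of genes with a peak midpoint inside the gene or within a growing distance of it (horizontal axis, kb, as categories), for each HOX cluster (coloured lines) and for all and short protein-coding genes (dashed lines). HOXC rises to 77.8% at 5 kb, HOXD to 44.4% and HOXB to 20%, while HOXA stays at 0 up to 100 kb.

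Position within the clusters showed no common pattern. Of the anterior genes, paralog numbers 1 to 3, 2 of 8 had a peak within 5 kb (25%). Of the central genes, numbers 4 to 8, 5 of 15 had one (33.3%), and of the posterior genes, numbers 9 to 13, 6 of 16 (37.5%). The order of these shares was set by single clusters. All 4 central HOXC genes had a peak, and none of the 9 central HOXA and HOXB genes did. The posterior genes with a peak were 3 of 5 in HOXC, 2 of 5 in HOXD, 1 of 2 in HOXB and 0 of 4 in HOXA. A midpoint inside the gene was found at HOXD3 among the anterior genes, at HOXC4, HOXC5 and HOXD4 among the central genes and at HOXC10 among the posterior genes. No paralog number had a peak at more than 2 of its genes. Numbers 4 (HOXC4 and HOXD4) and 9 (HOXB9 and HOXC9) had 2 of 4, and number 7 had none in 2 genes.

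**Figure D4:**
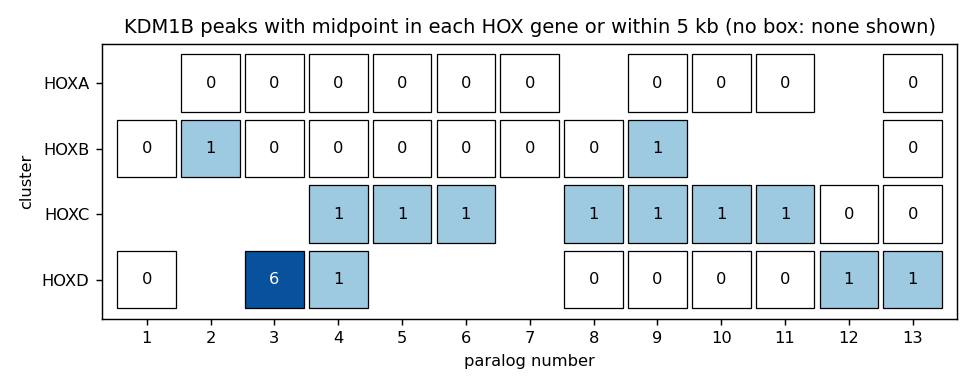
Number of peaks with a midpoint in each HOX gene or within 5 kb, by cluster (rows) and paralog number (columns), with no box where the cluster has no such gene or it is not reported here. HOXD3 has 6, 12 genes have 1 and the others shown have 0, and no column has more than 2 genes with a peak.

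The promoters of HOX genes, as far as they are listed, were outside the peaks. RefSeq windows from 250 bases before to 50 after a start were at hand for 20 HOX genes, with 26 distinct windows, 7 of them for HOXA3 and 1 shared by HOXC4 and HOXC5. No window was overlapped by a peak, against 30.4% of 22035 distinct windows of all protein-coding genes. Of the 26 windows 16 were in HOXA, inside the stretch without peaks, 8 in HOXD, 1 in HOXB and 1 in HOXC. HOXC10, with a peak near an end of the gene, had no window listed. The HOX windows had a median of 22.5 CpG dinucleotides, and all windows had 21. Windows under a peak elsewhere had a median of 29 and the others 15. The core homeodomain motif TAAT, counted on both strands, occurred in 76.9% of the HOX windows and in 42.7% of all windows. TTTAT, a form preferred by posterior HOX proteins, occurred on either strand in 53.8% and 28.6%, and the E-box CACGTG, which reads the same on both strands, in 34.6% and 8.31%. TAAT and TTTAT hold no G or C, and the median G and C content was 58.0% in HOX windows and 62.3% in all. Of the listed starts, that of HOXD4 lay closest to a peak midpoint, and its peak began 35 bp after the window ended. The listed HOXD3 start followed, at 1.51 kb, though the HOXD3 gene span begins further upstream. Their windows are printed with that of HOXA4, the paralog of HOXD4 in the cluster without peaks, and were picked after the distances were seen. Capitals mark TAAT on either strand.
HOXD4, chr2:176151300-176151599, plus strand: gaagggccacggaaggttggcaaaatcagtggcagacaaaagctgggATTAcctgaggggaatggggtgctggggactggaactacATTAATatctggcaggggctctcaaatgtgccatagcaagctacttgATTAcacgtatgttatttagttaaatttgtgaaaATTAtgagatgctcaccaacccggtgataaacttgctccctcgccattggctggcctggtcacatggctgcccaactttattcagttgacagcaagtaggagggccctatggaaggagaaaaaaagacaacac
HOXD3, chr2:176157057-176157356, plus strand: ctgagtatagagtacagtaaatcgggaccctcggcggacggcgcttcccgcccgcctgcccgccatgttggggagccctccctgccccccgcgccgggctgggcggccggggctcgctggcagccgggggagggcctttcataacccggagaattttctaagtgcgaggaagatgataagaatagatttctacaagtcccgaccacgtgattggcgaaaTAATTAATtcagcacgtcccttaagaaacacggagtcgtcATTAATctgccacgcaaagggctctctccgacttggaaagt
HOXA4, chr7:27130708-27131007, minus strand: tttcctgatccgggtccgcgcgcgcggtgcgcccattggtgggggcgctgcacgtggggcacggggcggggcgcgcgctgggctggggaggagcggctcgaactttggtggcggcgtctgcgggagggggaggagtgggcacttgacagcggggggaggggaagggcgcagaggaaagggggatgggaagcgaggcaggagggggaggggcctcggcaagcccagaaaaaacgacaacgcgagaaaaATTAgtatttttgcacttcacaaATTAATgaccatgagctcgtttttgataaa
HOXD4 and HOXD3 each held 5 matches of TAAT and HOXA4 held 3, with overlapping matches counted each. HOXD4 had 4 CpG dinucleotides, HOXD3 25 and HOXA4 27. The listed start nearest to a peak midpoint belonged to the window with the fewest CpG of these 3. The windows with 25 and 27 stood 1.51 kb and 210 kb from a peak. A relation of CpG to peaks was not tested, and 3 picked windows cannot show one.

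Long noncoding RNA genes of the clusters, many of them antisense to HOX genes, were chosen by symbol. The list of 18 left out LOC401021, over which a HOXD peak lay. Of the 18, 5 had a peak within 5 kb (27.8%), against 32.4% of 18177 lncRNA genes. These were HOTAIR (4.21), HOXC-AS3 (4.45), HOXB-AS4 (2.90), HOXD-AS2 (2.91) and HAGLR (4.72). A midpoint lay inside only HOTAIR and HOXB-AS4 among the 18. HOTTIP, which activates the posterior HOXA genes, and HOTAIRM1, at the anterior end of the cluster, were 134 and 241 kb from a peak. Of 13 protein-coding genes that flank the clusters or stand between HOXB9 and HOXB13, 3 had a peak (23.1%), against 67.5% of all protein-coding genes. They were ATP5MC2 (4.21), SKAP1 (3.93) and TTLL6 (2.40). EVX1 and EVX2, the even-skipped homeobox genes next to HOXA13 and HOXD13, had none, at 93.1 and 13.9 kb. Both are counted again among the ParaHox and EVX genes below.

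Genes that act with HOX proteins or on the clusters were described by the same count. Of the 9 TALE cofactors, homeodomain proteins that bind DNA together with HOX proteins, 7 had a peak within 5 kb (77.8%), near the 67.5% of all protein-coding genes. PKNOX1 had the highest ratio, 6.65, with 9 peaks, and PBX3 (4.05), MEIS2 (3.85) and MEIS3 (3.57) followed. Among the related ParaHox and EVX genes only CDX1 (3.93), an intestinal factor, had a peak, 1 of 8 (12.5%). Other homeobox genes had one in 18 of 33 (54.5%), near the 50.6% of short genes, among them NKX6-1 (4.86), EN2 (4.79), GBX1 (4.72) and GBX2 (4.72). Their median length was 6.80 kb. Some were covered broadly, such as OTX1 (80.2% of the gene) and PITX1 (64.7%), both above the highest coverage of a HOX gene, 60% at HOXD4.

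Among the lists described here, the regulators of the clusters had the highest shares of genes with a peak. Polycomb genes had a peak in 23 of 24 cases (95.8%), with RBBP7 (6.49), JARID2 (5.65), PCGF5 (5.57), BMI1 (5.49) and PCGF2 (5.49) highest, and RING1 without one. Trithorax genes and activators of HOX transcription had one in 12 of 14 (85.7%), led by MLLT1 (5.69), PSIP1 (5.57), RBBP5 (5.49), DOT1L (5.17) and ASH2L (4.86). Peaks covered 91.8% of WDR5 and 50.9% of KMT2A, the methyltransferase that maintains HOX expression. KDM6A and MLLT3 had none. These genes are longer than HOX genes, with medians of 38.9 and 41.4 kb, and the shares stand beside 74.2% of all protein-coding genes over 10 kb. The 85.7% of Trithorax genes and activators lies near that share. Of 14 genes of retinoid signalling, an input that activates HOX genes in the embryo, 9 had a peak (64.3%), near the 67.5% of all protein-coding genes. Highest were RXRA (5.72), RARB (4.34), RARA (3.86), CRABP2 (3.78) and RARG (3.62). Other clustered families were also low: 16 of 55 keratin genes (29.1%) and 22 of 53 clustered protocadherin genes (41.5%) had a peak within 5 kb. Their median lengths were 6430 and 110000 bp. The keratin share thus stands beside 50.6% of short protein-coding genes, and the protocadherin share beside 74.2% of longer ones. Differences between these lists were not tested. The highest ratios in the lists, such as those at PKNOX1 and RBBP7, were not checked for the form of a ratio over a single input read.

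**Figure D5:**
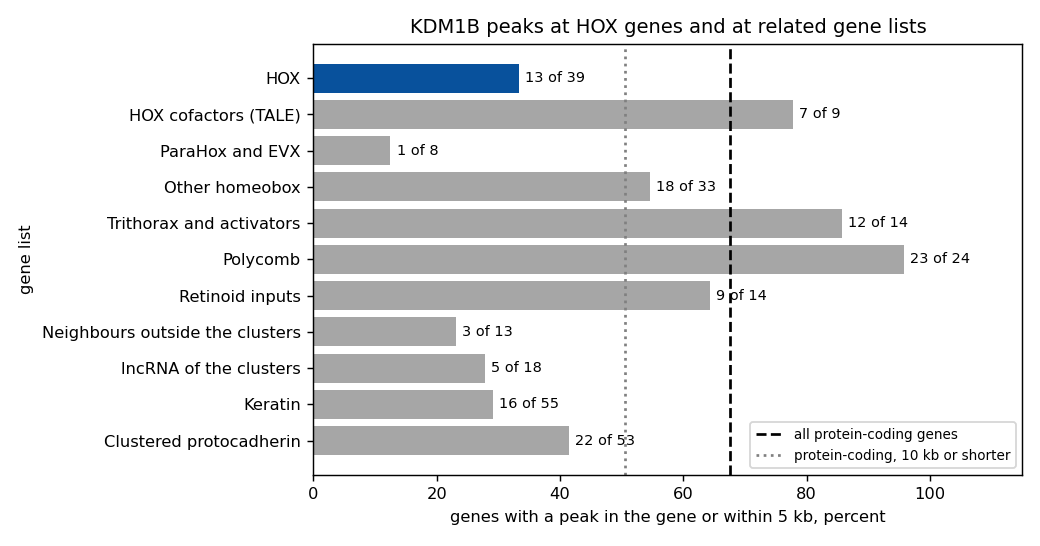
Percent of genes with a KDM1B peak in the gene or within 5 kb for HOX genes (blue bar) and the other lists (grey bars), with counts beside each bar and dashed and dotted lines at 67.5% of all and 50.6% of short protein-coding genes. HOX, ParaHox, flanking, cluster lncRNA and keratin genes lie at 33.3% or lower, and Trithorax (85.7%) and Polycomb genes (95.8%) lie highest. The flanking genes include some between HOXB9 and HOXB13, and share EVX1 and EVX2 with the ParaHox list.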

How the data were processed

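The submitters' processing notes name Trim Galore 0.4.5, Bowtie2 2.2.9 and the build hg38 for the 1 ChIP and 1 input library. The peak caller and thresholds were not given in the sources used here. The deposited list gives chromosome, start, end and the authors' log2 ratio of ChIP over input, without counts or p-values. That it is a log2 ratio was read from the values: the linear ratio of 12.4% of the peaks was a whole multiple of a common step (tolerance 0.0001). Coordinates are printed as deposited. Gene spans, promoter windows and microRNA sequences came from RefSeq GRCh38.p14 tables. A peak was assigned to every gene that its midpoint reached, so neighbours can share it. Distances between single genes and peaks were measured to the peak midpoint, and those of microRNA genes to the peak edge. Python 3.11.15 with pandas 2.3.3 was used, and the counting steps were tested on simulated data. HOX genes with a peak were named in full, and up to 5 genes of each other list by their strongest peak. Genes named for coverage, distance or the absence of a peak were chosen after their values were seen. The members and lists were chosen with earlier results of these data known. Some genes that these rules name are not reported here.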

Additional observations from a re-analysis of the deposited data

How the results depend on the processing

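Alternatives changed how many HOX genes were counted. HOXA had 0 peaks under all 8 counting alternatives and 4 coverage alternatives run for it. None of these could have given another result, since the widest window reached 10 kb and the nearest peak lay 141 kb away. HOX genes with a peak numbered 5 with the midpoint inside the gene, 7 within 2 kb and 6 with only the stronger peaks of the list, against 58.2%, 64.2% and 55.7% of all protein-coding genes. By position these 3 settings gave 1, 1 and 2 anterior genes, 3, 3 and 1 central genes, and 1, 3 and 3 posterior genes. The order of the classes thus depended on the setting, and so did that of the clusters. Within 2 kb, 44.4% of HOXD genes, 33.3% of HOXC genes and 0% of HOXB genes had a peak. Within 5 kb HOXC was highest, at 77.8%, with HOXD at 44.4% and HOXB at 20%. Genes with a peak near an end numbered 1 at 500 bp (2.56%, against 31.4% of all) and 12 at 5 kb (30.8%, against 59.4%). The stronger peaks left 1 peak in HOXB and 4 in HOXD, covering 0.298% and 2.75% of these clusters. The other alternatives stayed within 1.5 times the reported counts and coverage, and the median log2 ratio of the cluster peaks ranged from 2.91 to 3.08. No paired analysis was possible because each group held 1 library and no test was made. Read counts are unknown, so a weak signal below the authors' threshold cannot be told apart from no signal. Promoter windows were at hand for 20 of the 39 genes.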

Other observations

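Of the 51 stretches without a KDM1B peak that held 11 or more protein-coding genes, the 5 with the most genes per Mb were as follows. On chromosome 19 a stretch of 126 kb near the chromosome end held 25 genes. On chromosome 6 one of 154.4 kb held 17, from APOM to VWA7. On chromosome 17 one of 209.4 kb held 19, from KRTAP4-16 to KRTAP29-1, and one of 278.3 kb held 17, from KRT12 to KRTAP4-7, both in a region of keratin and keratin-associated protein genes. On chromosome 6 one of 221 kb held 18, from the histone gene H2BC6 to BTN3A2. These 5 held from 61.1 to 198 protein-coding genes per Mb, and the stretch around HOXA held 13.5. The 5 were chosen after the values were seen, and no test was made.

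The HOX-related genes PBX2, RXRB and RING1, which had no peak within 5 kb, all lay in a single stretch without peaks on chromosome 6, from 31963621 to 33271381. It measured 1308 kb and held 42 protein-coding genes, in the region of the HLA class II genes. Further stretches without peaks lay close by, such as one from 30589851 to 31400244 with 28 protein-coding genes. Input coverage of this region is unknown, and its part in the absence of peaks at the named genes was not tested.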
